A study of Rattus norvegicus with 4 samples.

Results

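The TNF superfamily ligands and receptors described here are 10 genes, 5 ligands (Tnf, Lta, Ltb, Tnfsf10 and Tnfsf13) and 5 receptors (Tnfrsf1a, Tnfrsf1b, Tnfrsf11a, Cd40 and Fas). They were found by matching the transcript accession of each array probe to rat RefSeq symbols. All 10 were measured, by 13 probes, among 16506 named genes. The RNA came from NR8383, an established rat alveolar macrophage line that goes back to the lung lavage of a normal animal and grows partly attached and partly floating. The single group, a serum control, held cells after 20 passages that were kept for 4 h in DMEM with 10% fetal bovine serum, in a condition whose label also carries the letters ALI, which are not interpreted here. Cells had been grown with 15% serum and an antibiotic and antifungal mix. Total RNA of 4 biological replicates was hybridised to 4 one-colour Agilent arrays, 1 replicate each. There was no second condition, so no treatment effect can be tested. The design allows the questions of which family genes the line expressed in this medium and how much they varied between replicates. The cells spent 48 h in 25 cm2 flasks after seeding, and each labelling used 100 ng of RNA.

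TNF superfamily ligands are trimeric proteins, most of them made on the cell surface and some released by cleavage, and they act by clustering their receptors. Receptors with a death domain, such as Tnfrsf1a and Fas, can start caspase activation, and most members switch on NF-kB and MAP kinases through TRAF adaptors. Macrophages are a main source of Tnf, which drives fever, endothelial activation and the release of further cytokines. Lta and Ltb are best known from lymphocytes, where they direct the building of lymphoid tissue.

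Tnf, Lta and Ltb are direct neighbours on rat chromosome 20, in the order Lta, Tnf, Ltb. Their promoters are shown because these neighbouring genes differed in detection, as described below. Each sequence runs 5′ to 3′ in the direction of the gene, from 250 bases before to 50 after its start, and comes from RefSeq on build GRCr8. That of Tnf lies at chr20:3626435-3626734 on the plus strand, that of Lta at chr20:3623277-3623576 on the plus strand and that of Ltb at chr20:3634005-3634304 on the minus strand. Capitals mark matches to TATAAA on the gene's strand, and on either strand to GAGGAA (the core bound by the myeloid factor PU.1, which reads TTCCTC on the other strand), to TGANTCA (AP-1) and to the NF-kB consensus.
Tnf: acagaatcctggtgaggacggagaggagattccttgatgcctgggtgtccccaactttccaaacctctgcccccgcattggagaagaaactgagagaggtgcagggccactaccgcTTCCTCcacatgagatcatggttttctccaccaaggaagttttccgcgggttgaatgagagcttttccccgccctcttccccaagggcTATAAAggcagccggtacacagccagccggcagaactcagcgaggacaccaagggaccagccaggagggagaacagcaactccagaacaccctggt
Lta: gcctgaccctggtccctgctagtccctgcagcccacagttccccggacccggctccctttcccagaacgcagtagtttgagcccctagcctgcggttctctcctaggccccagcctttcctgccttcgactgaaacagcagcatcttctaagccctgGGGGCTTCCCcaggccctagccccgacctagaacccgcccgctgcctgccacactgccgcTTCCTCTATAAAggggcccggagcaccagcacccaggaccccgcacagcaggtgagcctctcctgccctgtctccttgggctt
Ltb: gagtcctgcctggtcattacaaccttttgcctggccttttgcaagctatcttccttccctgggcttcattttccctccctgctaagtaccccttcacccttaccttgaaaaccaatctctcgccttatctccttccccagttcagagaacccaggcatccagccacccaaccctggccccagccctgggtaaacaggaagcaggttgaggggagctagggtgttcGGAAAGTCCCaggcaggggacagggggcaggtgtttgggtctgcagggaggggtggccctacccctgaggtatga
Counted from the first transcribed base, TATAAA began at -46 in Tnf and at -27 in Lta, and no copy lay in the Ltb window. It occurs in 8.80% of 33469 rat promoter windows of the same length. The PU.1 core lay at -134 in Tnf and at -33 in Lta, where it directly abuts TATAAA without overlapping it, and 27.6% of windows hold it. The NF-kB consensus was found in Lta at -93 and in Ltb at -25, and in 4.18% of all windows. No TGANTCA lay in these windows (7.33% of all). A match describes letters only, and a missing match says nothing about the factor.

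Of the 10 members, 6 were detected, meaning that a probe was flagged well above background by the scanner software on all 4 arrays. These were Tnf, Ltb, Tnfsf13, Tnfrsf1a, Tnfrsf1b and Fas. By the same rule 53.1% of all named genes were detected, so the share among the members was near that of genes in general. Lta was well above background on 2 arrays and Cd40 on 1, and Tnfsf10 and Tnfrsf11a on none, as 34.4% of named genes were. With 3 arrays required the members' count was again 6, beside 57.3% of named genes. It was 8 by the software's looser positive and significant flag (66.9% of named genes) and 8 by a limma test of each probe against negative control spots (69.8%). Both of these calls added Lta and Cd40. Levels below are log2 processed signal minus the 75th percentile over all probes of the array, where 0 is that percentile. Levels of different probes are not compared, but a gene's level averages its detected probes, and marker sums run over genes. Each member probe had 1 spot per array, for which the software gives its own error.

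**Figure D1:**
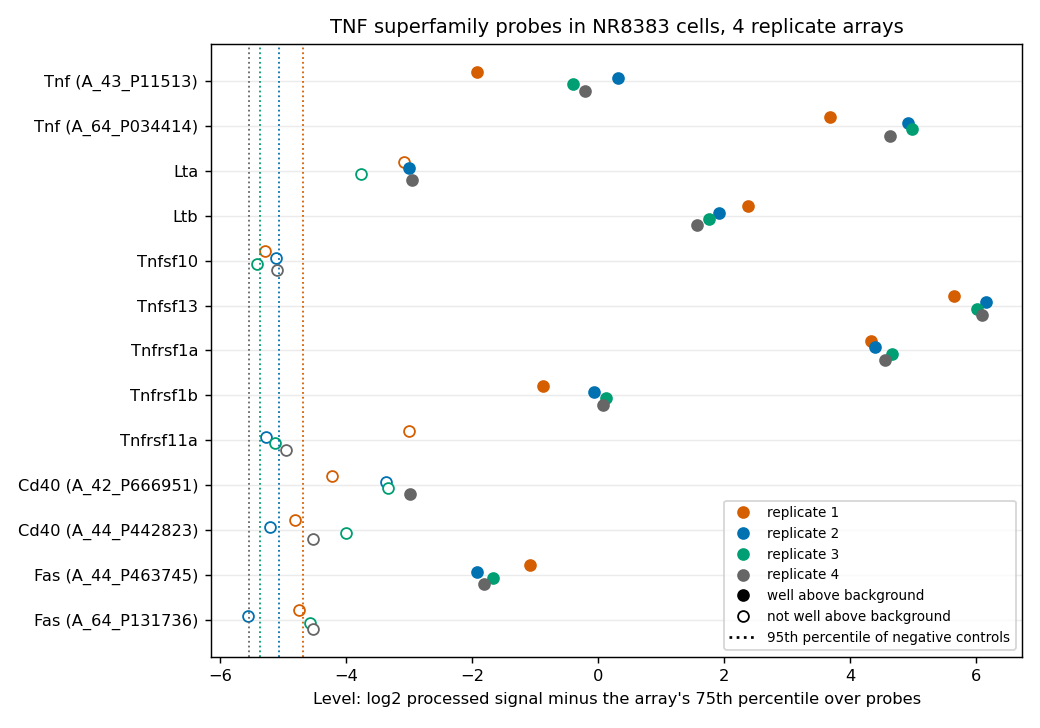
Level of each TNF superfamily probe (log2 processed signal minus the array's 75th percentile over probes) on the 4 replicate arrays. Filled circles are well above background, open circles are not, and dotted lines give the 95th percentile of negative control spots on each array. The replicate 1 circle of both Tnf probes and of Tnfrsf1b lies left of the other 3, and that of Ltb and of Fas probe A_44_P463745 lies right of them.

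Tnf, the founding cytokine of the family, was well above background with both of its probes on all 4 arrays, and with both it was lowest on replicate 1. Probe A_64_P034414 read a processed signal of 1075 on replicate 1 (software error 107), against 3387, 3993 and 4177 on replicates 2, 3 and 4. Relative to the 75th percentile this was a level of 3.69 on replicate 1, against 4.92, 4.98 and 4.64 on the others. Probe A_43_P11513 read 21.9 on replicate 1 (software error 3.38), against 139, 96.3 and 145. Its levels were -1.93 on replicate 1, against 0.32, -0.39 and -0.21. With both probes, replicate 1 was the lowest array before and after scaling. The probes differed in the size of the gap, 2.23-fold and 3.56-fold below the mean of the others on the scaled level.

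Averaged over its probes, Tnf lay at 0.88 on replicate 1, a difference of -1.50 from the mean of replicates 2 to 4, on which its SD was 0.21. In all, 0.376% of the 8772 detected genes had a more negative difference on replicate 1. That rank rests on both probes, of which A_43_P11513 was dim on replicate 1. With A_64_P034414 alone the difference was -1.16, and under normexp background correction it was -1.04. The -1.16 falls short of -1.27, the 1st percentile over all detected genes in the main setting. No such percentile was computed under normexp, whose offset of 50 shrinks differences of dim probes, so the -1.04 is not ranked. Averaged over probes and all 4 arrays, the Tnf level was 2.00 ± 0.77 (SD, n = 4), and that SD was at the 97.8th percentile of detected genes. The 2.00 lies between probe means of 4.56 (A_64_P034414) and -0.55 (A_43_P11513). Fewer Tnf-expressing cells and less Tnf RNA per cell cannot be told apart in such bulk RNA. No test was made, since replicate 1 is 1 array of the same group.

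Ltb, the membrane-anchored partner that forms a trimer with Lta, was detected and was highest on replicate 1, where Tnf was lowest. Its levels were 2.38 on replicate 1, against 1.91, 1.76 and 1.57 on replicates 2, 3 and 4, or 1.91 ± 0.35 in all (SD, n = 4). Before scaling, the Ltb signal was nearly even, at 434 on replicate 1, against 422, 428 and 497. Its place above the others on replicate 1 comes with the scaling, and without it the difference turns from 0.63 to -0.046. Lta, the soluble partner, lay at -3.09 on replicate 1, against -3.00, -3.77 and -2.95, with signals between 9.28 and 21.6, and was well above background on replicates 2 and 4 only. Limma found it above the 95th percentile of negative controls by 1.96 log2 units (adjusted p = 0.000131, one-sided, over all probes).

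**Figure D2:**
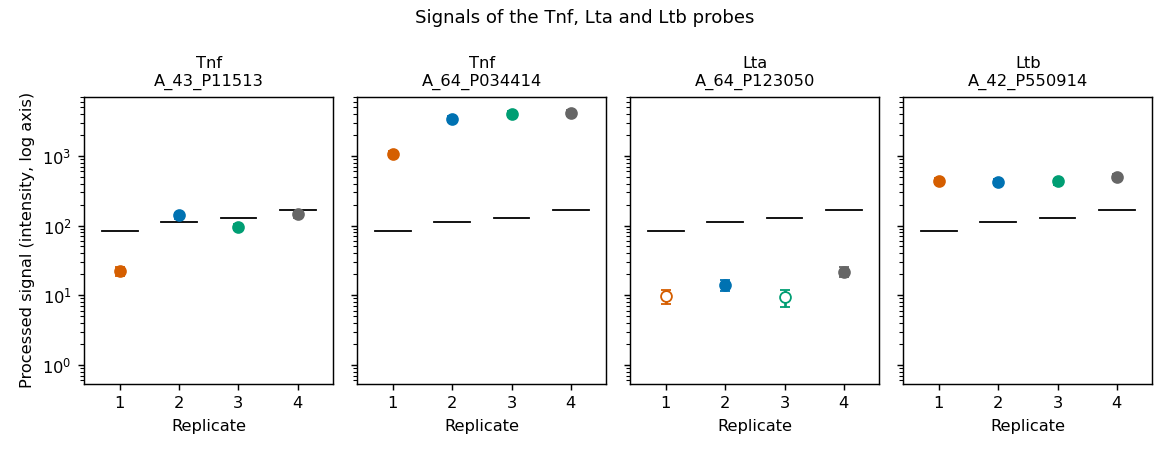
Processed signal (intensity on a log axis) of the probes of the neighbouring genes Tnf, Lta and Ltb on each replicate, with the software's error as bars and each array's 75th percentile over probes as a black line. Open circles are not well above background. Both Tnf probes are lowest on replicate 1, the Ltb signal stays between 422 and 497, and Lta lies between 9.28 and 21.6.

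Lymphocyte markers are given here because lymphocytes are a known source of Lta and Ltb. Of 10 T and NK cell markers, 5 were detected, near the 53.1% of all named genes. Well above background on no array were 4, near the 34.4% of named genes, among them Cd2 and Cd3e, a chain of the T cell receptor complex. Lck, a T cell kinase, lay at -0.48 ± 0.29 and Nkg7, a cytotoxic granule gene, at 0.24 ± 0.17 (SD, n = 4 each). Cd3d lay at -0.69 ± 0.14 and Zap70, the kinase of the T cell receptor, at -2.37 ± 0.22. Of the B cell markers 2 of 3 measured were detected, the B cell factor Pax5 at 0.35 ± 0.11 and, on 1 of its 2 probes, the lectin Cd22 at -2.58 ± 0.38. Cd79b was well above background on no array. The log2 of the summed level of the detected T and NK markers was between 1.56 and 1.80 on the 4 arrays, and that of the B cell markers between 0.35 and 0.68. The part of such cells in the Ltb signal was not tested. Of 10 macrophage markers 9 were detected, against 53.1% of all named genes. Their summed scaled level on replicate 1 was 9.68 (log2), against 9.35 to 9.51 on the others. Before scaling, this sum was lowest on replicate 1. The sum leans on the brightest marker, Lyz2 (8.93 on replicate 1).

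Tnfsf13, which encodes APRIL, a survival factor for plasma cells, was detected on 1 probe. Its levels were 5.66 on replicate 1, against 6.15, 6.02 and 6.10 on replicates 2, 3 and 4, giving 5.98 ± 0.23 over the 4 arrays (SD, n = 4). The SD on replicates 2 to 4 alone was 0.066. Tnfsf13 is the direct neighbour of Tnfsf12 on rat chromosome 10, and in human a joined transcript of both genes is known. Whether a probe reads such a transcript was not tested. Tnfsf10, which encodes TRAIL, a ligand that can kill tumour cells, was at the level of negative controls. Its signals were 2.13, 3.23, 2.94 and 4.86 on replicates 1 to 4. On replicates 1 to 3 they were no larger than the software's own error and lacked the positive and significant flag. Limma placed Tnfsf10 -0.069 log2 units from the 95th percentile of negative controls (adjusted p = 0.779).

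Among the receptors, both TNF receptors were detected. Tnfrsf1a, the widely expressed death domain receptor of Tnf, had the lowest SD of the detected members, at 4.34 on replicate 1, against 4.40, 4.67 and 4.55 (4.49 ± 0.15, SD, n = 4). Its SD lay at the 24.6th percentile of detected genes. Tnfrsf1b, the receptor that lacks a death domain and is prominent on leukocytes, lay at -0.88 on replicate 1, against -0.07, 0.12 and 0.07. Replicate 1 was the lowest array and differed by -0.92 from the mean of the others. Dixon's ratio was 0.812, under the critical value for 4 arrays. Its probe was dim, at 45.3 on replicate 1, against 107, 137 and 176. Under normexp background correction the difference was -0.30. That setting adds an offset of 50, which by itself shrinks differences of dim probes, so this value does not test the difference.

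Fas, the death receptor that removes activated lymphocytes, rested on 1 of 2 probes. Probe A_44_P463745 gave levels of -1.08 on replicate 1, against -1.92, -1.67 and -1.81, so replicate 1 was highest. Unscaled, its signal was 39.5 on replicate 1, against 29.6, 39.7 and 47.7, and there replicate 1 lay within the range of the others. Probe A_64_P131736 was well above background on no array and limma did not call it (adjusted p = 0.239). The probes of Fas disagree, so its detection rests on 1 dim probe.

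Cd40, the receptor through which T cells license macrophages, was near the limit of detection. Probe A_42_P666951 read 4.46 on replicate 1, against 10.8, 12.5 and 21.2, and was well above background on replicate 4 alone. Limma called it above negative controls (adjusted p = 0.00267), but not the second probe A_44_P442823 (adjusted p = 0.109). Tnfrsf11a, which encodes RANK, the receptor that starts osteoclast formation, was well above background on no array. Its signals were 10.4 on replicate 1, against 2.90, 3.62 and 5.39, and limma did not call it (adjusted p = 0.0951). The 2.90 was no larger than its software error. Of 5 measured osteoclast markers 4 were detected, by the rule that 53.1% of all named genes passed. These were the calcitonin receptor Calcr at 2.11 ± 0.33, the proton pump subunit Atp6v0d2 at 4.17 ± 0.28, the phosphatase Acp5 at -1.06 ± 0.75 and the immune receptor Oscar at -2.26 ± 0.26 (SD, n = 4 each). Ctsk, the collagen-degrading protease of osteoclasts, was well above background on no array.

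Across the 6 detected members, 4 were lowest on replicate 1 (Tnf, Tnfsf13, Tnfrsf1a and Tnfrsf1b) and 2 were highest there (Ltb and Fas). Of all detected genes 32.8% were lowest on replicate 1 and 42.3% were highest there. The median difference of replicate 1 from the others was -0.32 for the members and 0.071 for all detected genes. The median SD of the detected members was 0.36, beside 0.24 for all detected genes. Replicate 1 also had the lowest 75th percentile of signal (83.2, against 112, 126 and 168) and the lowest share of spots well above background (50.9%, against 53.9%, 56.5% and 58.9%). The part of array brightness in these differences was not tested.

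**Figure D3:**
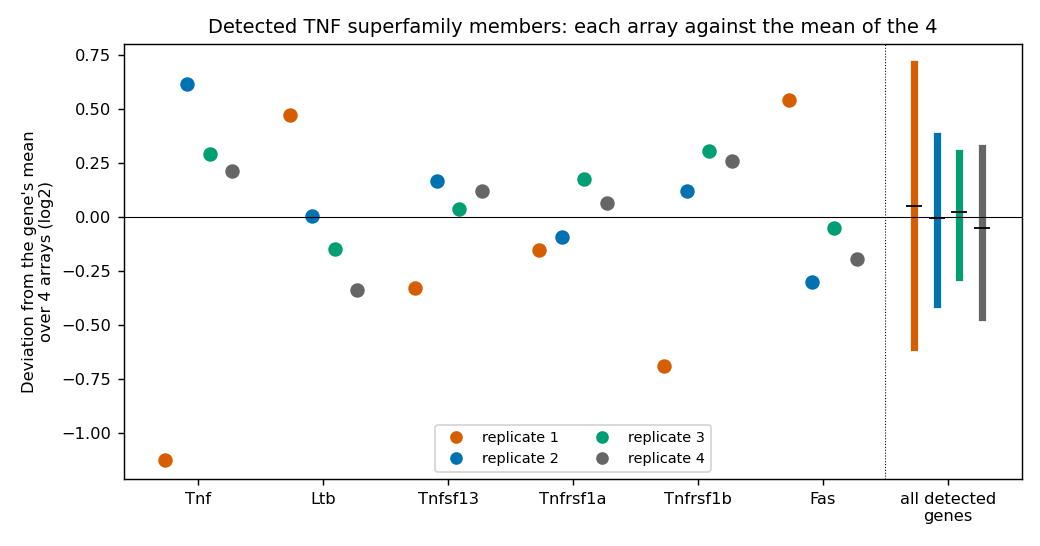
Deviation of each array from the gene's mean over the 4 arrays (log2) for the 6 detected members, with the 5th to 95th percentile and median (black dash) over all 8772 detected genes at the right. Tnf on replicate 1 lies at -1.12 and Tnfrsf1b at -0.69, below the 5th percentile of -0.60 for all genes on that array.

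Of 28 further family genes measured, 9 were detected (32.1%), fewer than the 53.1% of all named genes. Well above background on 1 to 3 arrays were 5, and on none 14, beside 34.4% of named genes on none. Among the ligands 5 of 11 were detected. Tnfsf12, which encodes TWEAK, lay at 5.92 ± 0.36, Tnfsf13b, which encodes the B cell survival factor BAFF, at -2.70 ± 0.53 and Tnfsf15 at -0.18 ± 0.32 (SD, n = 4 each). Tnfsf9, the ligand of the T cell costimulator 4-1BB, lay at -0.49 ± 0.31. Eda, a ligand of skin appendage development, lay at -2.04 ± 0.22 on 1 of its 2 probes. The T cell ligands Cd40lg and Faslg and the RANK ligand Tnfsf11 were well above background on no array.

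Of 17 further receptors, 4 were detected (23.5%), beside 53.1% of all named genes. Ltbr, the receptor of the Lta and Ltb trimer, had the lowest SD of these, at 5.17 on replicate 1, against 5.30, 5.41 and 5.20 (5.27 ± 0.11, SD, n = 4). Tnfrsf12a, the TWEAK receptor, lay at 1.25 ± 0.21 and the death domain receptor Tnfrsf21 at 1.99 ± 0.49. Relt, averaged over its 2 probes, lay at 2.28 ± 0.30. The probes of Ltbr and Tnfrsf12a had 10 spots per array, which were averaged, and those of Tnfrsf21 and Relt 1, so these SDs are not alike. The decoy receptor Tnfrsf11b and the receptors Tnfrsf14 and Tnfrsf13b were well above background on no array. Set out as 16 known ligand and receptor pairs, chosen with these values known, 4 pairs had both genes detected. These were Tnf with each of Tnfrsf1a and Tnfrsf1b, Ltb with Ltbr and Tnfsf12 with Tnfrsf12a. The share of pairs among all named genes with both detected was not counted. In 5 pairs the ligand alone was detected, as for Tnfsf13 and its receptors Tnfrsf13b and Tnfrsf17. In 1 pair the receptor alone was detected, Fas without Faslg. By limma and by the looser flag 6 pairs had both genes detected and 4 the ligand alone, with Tnfsf15 and Tnfrsf25, and Eda and Edar, among the pairs with both.

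**Figure D4:**
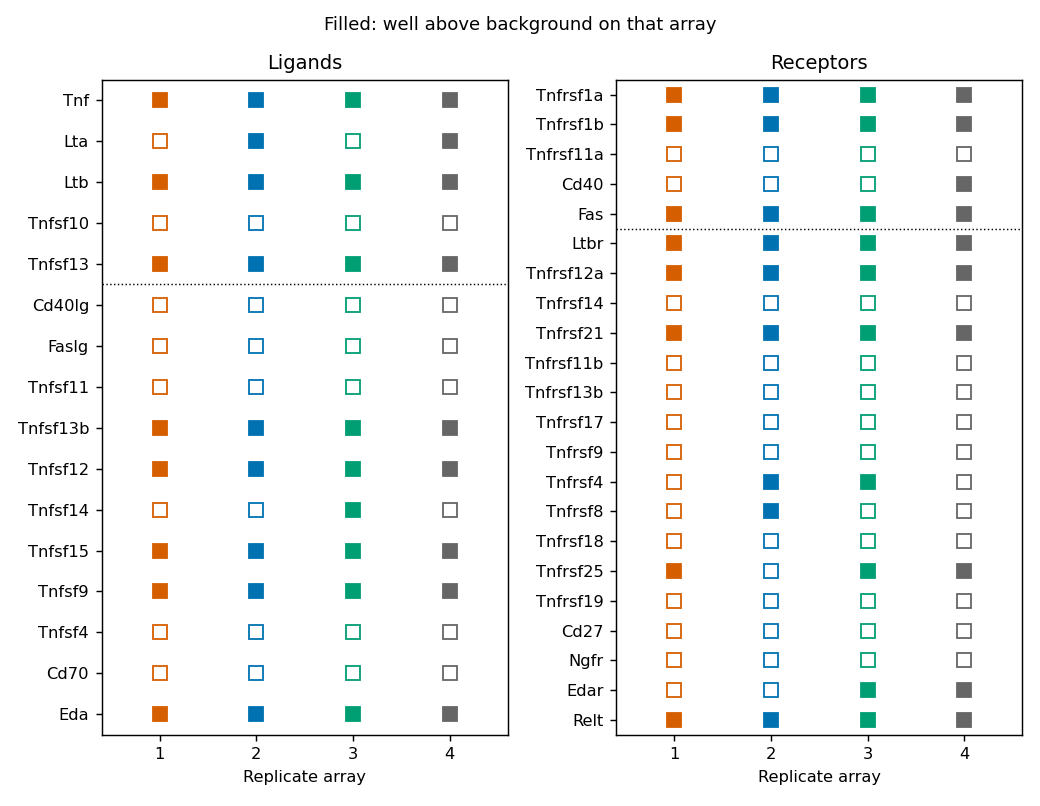
Detection of the 38 measured TNF superfamily genes on each replicate array, ligands left and receptors right, with the 10 members above the dotted line. Filled squares are well above background. Rows filled across all 4 arrays number 6 among the members and 9 among the other genes.

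The machinery downstream of the receptors was mostly detected, with 14 of 16 measured genes of receptor signalling, against 53.1% of all named genes. The adaptor Tradd lay at 4.14 ± 0.11, the kinase Ripk1 at 2.68 ± 0.26, the ubiquitin ligase Traf2 at 0.93 ± 0.23 and Traf6 at -1.09 ± 0.71 (SD, n = 4 each). Traf6 was lowest on replicate 1, at -2.14, against -0.79, -0.93 and -0.53. The other 2 genes, Traf1 and Birc3, were well above background on 1 and 3 arrays. Of the cell death arm 6 of 7 were detected. Its adaptor Fadd lay at -1.63 on replicate 1, against -0.11, -0.32 and -0.32. The caspase inhibitor Cflar, detected on 1 of its 2 probes, lay at -0.36 on replicate 1, against 0.88, 0.85 and 0.87. Casp8, the initiator caspase, lay at 0.40 on replicate 1, against -0.20, -0.38 and 0.08. Ripk3, the necroptosis kinase, lay at 5.28 ± 0.22, and Cradd was well above background on no array.

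Of the cleavage list 7 of 9 were detected, beside 53.1% of all named genes, among them Adam17, the protease that sheds Tnf, at 1.77 ± 0.33, and its partners Rhbdf2 at 3.78 ± 0.14 and Frmd8 at 4.93 ± 0.12 (SD, n = 4 each). Sppl2a, which cleaves the Tnf stump left in the membrane, lay at 2.43 ± 0.16. The inhibitor Timp3 was well above background on no array. All 5 measured brakes of signalling were detected (again beside 53.1%), with the deubiquitinases Cyld at -0.72 ± 0.13 and Otulin at 0.90 ± 0.27, and Tnip1 at 2.50 ± 0.18. Tax1bp1, an adaptor of the deubiquitinase A20, lay at 4.04 ± 0.44 and differed by -0.86 on replicate 1 from the mean of the others. All 6 measured regulators of Tnf mRNA were detected, by the rule that 53.1% of named genes passed. On the scaled level replicate 1 was lowest for none of the 6 and highest for 4, beside 32.8% and 42.3% of all detected genes. Before scaling, replicate 1 was highest for Zfp36 alone and lowest for Elavl1, Tia1 and Zfp36l1. Without scaling 74.1% of all detected genes were lowest there. Zfp36, which speeds the decay of Tnf mRNA, lay at -1.87 on replicate 1, against -2.55, -2.84 and -2.96. Elavl1 lay at 4.42 ± 0.12, Tia1 at -1.31 ± 0.10 and Zfp36l1 at 0.61 ± 0.20.

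Of the genes known to be induced by Tnf, 10 of 16 were detected (62.5%), near the 53.1% of all named genes. Replicate 1 was lowest for 4 of these and highest for 3, near the 32.8% and 42.3% of all detected genes. Ccl2, the monocyte chemokine, lay at 5.83 on replicate 1, against 7.70, 7.73 and 7.81. Icam1, an adhesion molecule, lay at 4.50 on replicate 1, against 5.54, 5.27 and 5.31, and Cxcl2, a neutrophil chemokine, at 0.78, against 1.98, 1.72 and 1.72. The NF-kB inhibitor Nfkbia stayed even, at 3.44 on replicate 1, against 3.60, 3.36 and 3.44. The 3 targets highest on replicate 1 were Irf1, Tnfaip2 and Sod2. On the scaled level they differed by 0.60, 0.43 and 0.36 from the mean of the others. Before scaling, replicate 1 was lowest for Tnfaip2 and Sod2 and lay within the range of the others for Irf1. Il6 and Tnfaip6 were well above background on no array. The median difference of replicate 1 from the others over the detected genes of this list was -0.10, beside 0.071 for all detected genes.

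**Figure D5:**
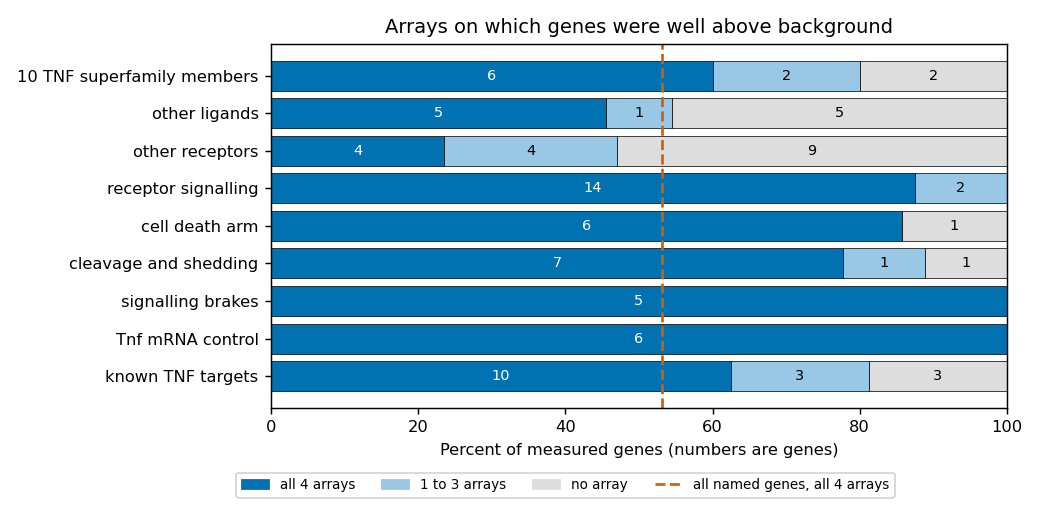
Percent of measured genes well above background on all 4 arrays, on 1 to 3 arrays and on no array for the 10 members, the other ligands and receptors and the pathway lists, with gene numbers in the bars. The dashed line is the 53.1% of all named genes detected on all 4 arrays.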

How the data were processed

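Per the file headers, the deposited scanner files are one-colour (Cy3) Agilent scans of 4 arrays on 1 slide with 1 scan time, so neither could be tested as a batch. Spots were read by Agilent Feature Extraction 11.0.1.1, per the submitters' processing notes. What the authors deposited is linear intensity data, background-subtracted by the software and not scaled between arrays, and the other columns used are 0 or 1 flags per the file headers. Of 62976 spots per array, 4259 controls were left out, as were outlier spots (440 to 1206 per array). No spot was saturated. Accessions were matched without version to RefSeq symbols of GRCr8, which named 21109 of 45598 probes. Spots of a probe were averaged as log2, and the 75th percentile over probes was subtracted. A gene was detected if a probe was well above background on all 4 arrays, and its level is the mean of its detected probes. Limma 3.58.1 in R 4.3.3 tested each probe against the 95th percentile of negative controls, with Benjamini-Hochberg adjustment over all probes and an adjusted p under 0.05, and was tested on simulated data. Other steps used pandas 2.3.3, numpy 2.4.6 and matplotlib 3.10.9 under Python 3.11.15.

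The labels call the replicates biological without naming separate cultures, so spreads may be partly technical, and the number of arrays limits the precision. The members, the gene lists and the pairs were chosen with earlier results of these data known. Named genes were all members, every other detected family gene with the first 3 on no array in the ligand and receptor lists, and of each further list the first 4 detected and the first 2 on no array, with any listed gene that Dixon's test set apart. Traf1, Birc3, Tnfrsf17, Tnfrsf25, Edar, Irf1, Tnfaip2 and Sod2 fall outside this rule and were named after their values were seen. A pair of listed genes is not reported here and was left out of the list counts. Alternatives were other detection calls, scalings, background correction, probe rules and each replicate left out.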

Additional observations from a re-analysis of the deposited data

Results flagged for a closer look

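By Dixon's test for 4 values, no array stood apart for the 6 detected members. Over all 13 member probes, detected or not, 1 had such an array, Tnfrsf11a (0.862), which was high on replicate 1 but well above background on no array. Of 86 detected genes of the gene lists, cell type markers included, 7 did, and chance marks about 1 in 20 groups. How often this test marks detected genes in general was not counted, so 7 of 86 is not read as an excess. The number in brackets is the gap between the extreme array and its nearest neighbour as a share of the range. Low on replicate 1 were Ccl2 (0.941), Cflar (0.973), Fadd (0.863) and Atp6v0d2 (0.849). The value of Cflar rests on 1 of its 2 probes. High on replicate 1 after scaling was Hnrnpd (0.921), which binds AU-rich mRNA. Before scaling, its replicate 1 value lay within the range of the others. Low on replicate 2 were the T and NK marker Nkg7 (0.901) and Zfp36l2 (0.831), a relative of Zfp36.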

How the results depend on the processing

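The same 6 members were detected when outlier spots were kept, when spots in a dim area of replicate 4 (which held no member spot) were left out, when 3 arrays sufficed, and without each replicate in turn. Limma and the software's looser flag each detected 8, adding Lta and Cd40, beside 69.8% and 66.9% of all named genes. They also detected 15 and 14 other family genes, against 9. Both genes were detected in 4 to 6 of 16 pairs over the detection calls, an alternative chosen after seeing the data. Replicate 1 was lowest for 4 detected members under all other alternatives and for 3 under normexp, where Tnfrsf1a was the exception. Of all detected genes 32.8% were lowest there in the main setting, 35.4% under normexp and 74.1% without scaling. The unchanged count of members without scaling thus stands beside a much larger share of genes in general. The difference of Tnf on replicate 1 lay between -2.17 (no scaling) and -1.04 (normexp, offset 50, on median signals, since the files used hold no mean signal). That of Ltb turned to -0.046 without scaling, a setting that moved the median over all detected genes to -0.61, against 0.071. Scaling by the 75th percentile over spots was chosen after seeing the data and changed no count. Naming probes by gene name was not run, as the files used hold no such column. No paired analysis was possible because there is 1 group. Dim probes (Lta, Cd40, Fas, Tnfrsf11a and, on replicate 1, Tnf probe A_43_P11513 and Tnfrsf1b) are limited by signal over background.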

Other observations

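Most markers of epithelium, neutrophils, fibroblasts and dendritic cells were not detected, by the rule that 53.1% of all named genes passed. None of 8 epithelial markers was detected, with Epcam and Cdh1 well above background on no array, and none of 5 measured neutrophil markers, among them S100a8 and S100a9, was so on any. Of 7 fibroblast markers 2 were detected, Col1a2 at -1.96 ± 0.25 and Dcn at -0.13 ± 0.38 (SD, n = 4 each), while Col3a1 and Lum were well above background on no array. Of 4 dendritic cell markers measured 1 was detected, Clec9a at -0.95 ± 0.34 on 1 of its 2 probes, and Zbtb46 and Xcr1 were well above background on no array. Among macrophage markers Cd68 lay at 7.44 ± 0.17, Csf1r at 1.83 ± 0.39, Spi1 at 3.78 ± 0.11 and Lyz2 at 8.79 ± 0.11.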
